A study of Mus musculus with 12 samples.

Results

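The genes described here were 10 mouse chemokine genes, each with all array probes annotated to its symbol: the ELR-bearing CXC genes Cxcl1, Cxcl2, Cxcl5 and Ppbp, the other CXC genes Cxcl10, Cxcl12 and Cxcl16, the CC genes Ccl2 and Ccl20, and the CX3C gene Cx3cl1. Of these, 9 had an annotated probe on the array, with 18 probes in all of 45135. To be tested, a probe needed a detection p-value (the authors') under 0.05 on every replicate array of 1 culture or more, and 10 of the 18 probes and 18950 of all probes passed. That left 7 of the 10 genes among the 10112 genes tested. Cxcl10 and Ccl2 did not pass, and Cxcl5 had no probe annotated to it here. Chemokines are small secreted or membrane-bound proteins that guide the movement of cells, above all leukocytes, through receptors that signal by G proteins. They are grouped by the spacing of their first cysteines into CXC, CC and CX3C families, and CXC chemokines with an ELR motif (glutamate, leucine, arginine) ahead of the cysteines attract neutrophils through CXCR2. Epithelial cells can make several of them in response to cytokines and bacterial products, in part through the transcription factor NF-κB.

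The cells were prostate stem cells of C57Bl/6 mice, and the study compared growth as spheroids, which are balls of cells, with growth as an adherent layer. Illumina bead arrays were hybridised with RNA from a spheroid culture of mouse 1, an adherent culture of mouse 2 and an adherent culture of mouse 1. Each culture had 3 replicate arrays and 1 array of their pool, 12 arrays in all. The labels do not say whether replicates were separate cultures, so the p-values cover nothing but the spread between these samples, and that spread may be technical. All spheroid arrays came from mouse 1, and a culture here means the arrays of 1 growth form of 1 mouse. Mouse 2 has no spheroid arrays among these samples, so a difference between adherent mouse 2 and adherent mouse 1 may belong to the animal or to its culture, which cannot be told apart. The spheroid culture and adherent mouse 2 differ in both animal and growth form, and these cannot be told apart in any comparison between them.

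Values are log2 signals after background correction with an offset of 16, so a probe without signal sits near 4, and a log2 difference understates changes of dim probes. Genes are described as called where limma gave an adjusted p under 0.05 (Benjamini-Hochberg, over all genes tested) together with a fold of 2 or more. The basal epithelial markers with a probe (Krt5, Krt14, Krt15, Trp63, Itga6 and Cd44) were detected on all 3 arrays of every culture, 6 of 6. Each array detected 43.1% to 49.1% of its probes. The intensity exceeded by 10% of the probes was 3.10 to 3.25 times background on spheroid replicate arrays, against 3.83 to 4.74 times on adherent replicate arrays, and the part of this difference in the results was not tested. Adherent mouse 2 replicate 1 lay apart from the 2 other replicate arrays of its culture on the second principal component (2.77, against 25.1 and 31.3, with adherent mouse 1 at -18.0 to -19.4). The remaining arrays of adherent mouse 2 carry 1 name between them in the deposited table and are called a and b.

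Cxcl1 and Cxcl16 were higher in the spheroid culture than in both adherent cultures, Ppbp was high in the spheroid culture and in adherent mouse 2, and Cxcl2 was slightly higher in the spheroid culture than in adherent mouse 1. These are bulk samples, so fewer cells making a transcript and less of it in each cell cannot be told apart, here and in every result that follows. Cxcl12, Ccl20 and Cx3cl1 were not called anywhere. Against adherent mouse 1, 4 of the 7 tested chemokine genes (Cxcl1, Cxcl2, Ppbp and Cxcl16) were called higher in spheroids and 0 lower, where 27.6% of all genes were called, 13.4% as higher and 14.1% as lower. The arrays of these cultures did not overlap for the same 4 genes, and for 68.6% of all genes. Against adherent mouse 2, 2 of 7 (Cxcl1 and Cxcl16) were called higher and 0 lower, where 26.8% of all genes were called, 13.2% as higher and 13.6% as lower, so the share of chemokine genes called was close to that background. There the arrays did not overlap for 4 of 7 (Cxcl1, Cxcl2, Cxcl16 and Cx3cl1), against 62.4% of all genes. Between adherent mouse 2 and adherent mouse 1, 1 of 7 (Ppbp) was called higher and 0 lower, where 2.46% of all genes were called, 1.41% as higher and 1.05% as lower. Arrays of the adherent cultures did not overlap for 2 of 7 (Ppbp and Cxcl16), against 30.8% of all genes. The median log2 difference of the 7 genes was 1.12, 0.62 and 0.04 in these comparisons, which share arrays, against -0.06, -0.05 and -0.01 over all genes tested. Several of the 7 passed the filter only through 1 culture, so these counts do not stand for all 10. With arrays scaled to equal medians the share of higher genes among all calls was 31.9%, against 48.8% with quantile normalization, for spheroids over adherent mouse 1. For spheroids over adherent mouse 2 it was 23.1%, against 49.2%, and for adherent mouse 2 over adherent mouse 1 it was 77.9%, against 57.4%.

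**Figure D1:**
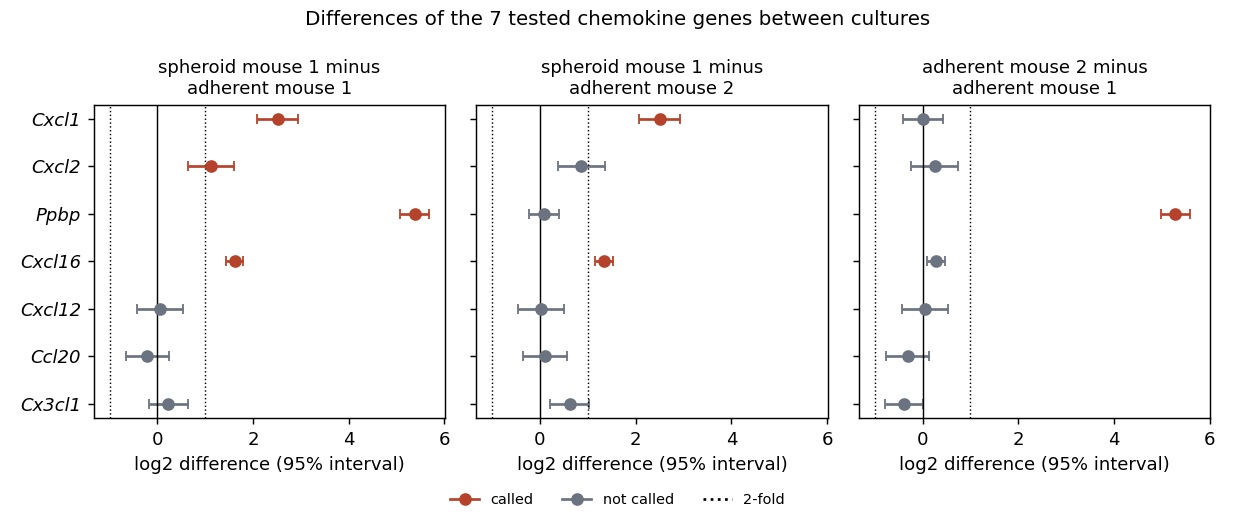
Log2 differences with 95% intervals (x axis) of the 7 tested chemokine genes (y axis) in the 3 comparisons, with dotted lines at 2-fold and called genes in red. Cxcl1 and Cxcl16 lie right of the dotted line in both comparisons of the spheroid culture, and Ppbp, at 5.38 and 5.29, in both comparisons with adherent mouse 1.

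The ELR-bearing genes Cxcl1 and Ppbp held the largest differences among the 7 genes tested, and the 3 measured ELR-bearing genes did not share a pattern. Cxcl1 was higher in the spheroid culture, by 5.71-fold against adherent mouse 1 and 5.68-fold against adherent mouse 2. Ppbp was at about the same level in the spheroid culture and in adherent mouse 2, and 41.6-fold higher in the spheroid culture than in adherent mouse 1. Cxcl2 lay near background in all 3 cultures and passed the fold threshold narrowly, against adherent mouse 1 only. In mouse these genes lie in the CXC cluster of chromosome 5. The 300-base promoters of Cxcl1 (chr5:90890995-90891294, plus strand), Cxcl2 (chr5:90903649-90903948, plus strand) and Ppbp (chr5:90768268-90768567, plus strand), from 250 bases before to 50 bases after the annotated start, are printed because these genes are neighbours with different patterns. They are RefSeq sequences on build GRCm38.p6. Capitals mark matches, on either strand, to GGNNTTTCC, an NF-κB type motif, or to TGANTCA, a loose AP-1 type motif with any base at its centre.
Cxcl1: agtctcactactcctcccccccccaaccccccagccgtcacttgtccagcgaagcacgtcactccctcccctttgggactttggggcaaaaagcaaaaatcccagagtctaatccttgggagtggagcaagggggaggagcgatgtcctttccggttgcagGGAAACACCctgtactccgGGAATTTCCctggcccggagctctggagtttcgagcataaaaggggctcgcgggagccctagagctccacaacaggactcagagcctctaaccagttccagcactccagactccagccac
Cxcl2: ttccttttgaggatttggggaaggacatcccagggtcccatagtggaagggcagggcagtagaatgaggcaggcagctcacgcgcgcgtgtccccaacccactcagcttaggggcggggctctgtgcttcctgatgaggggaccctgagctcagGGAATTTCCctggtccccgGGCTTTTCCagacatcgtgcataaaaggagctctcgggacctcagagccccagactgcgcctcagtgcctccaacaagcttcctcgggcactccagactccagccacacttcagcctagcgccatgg
Ppbp: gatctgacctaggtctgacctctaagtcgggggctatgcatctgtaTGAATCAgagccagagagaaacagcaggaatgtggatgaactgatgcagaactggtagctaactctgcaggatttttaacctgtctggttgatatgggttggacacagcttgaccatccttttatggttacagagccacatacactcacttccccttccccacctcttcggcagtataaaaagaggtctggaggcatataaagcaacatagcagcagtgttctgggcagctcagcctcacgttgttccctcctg
The NF-κB type motif was present in 5.82% of 32851 RefSeq promoters of the same length. It was found in 4 of the 7 chemokine genes with a promoter in that table. Cxcl1 held it at 2 positions, starting 89 and 70 bases before the start, and Cxcl2 at 2 positions, starting 96 and 77 bases before it. Ccl20 and Cxcl10 held it once each, starting 80 and 158 bases before the start. The AP-1 type motif was present in 7.81% of the promoters, and here in 2 of the 7. Ppbp held it as TGAATCA, starting 204 bases before the start, and Cxcl10 as TGAGTCA, starting 74 bases before it. No capitals of one motif overlapped those of the other. Cxcl12 and Cx3cl1 held neither motif in this window. These matches are letters in a window and no measurement of binding.

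Cxcl1 encodes the CXCR2 ligand known in mouse as KC, a main attractant of neutrophils. Its log2 signal was 11.98, 12.04 and 12.09 on the spheroid arrays, 10.06, 9.37 and 9.17 on the adherent mouse 2 arrays (replicate 1, a and b) and 9.48, 9.25 and 9.84 on the adherent mouse 1 arrays. All 3 spheroid arrays lay above all 6 adherent arrays, and the adherent cultures overlapped. The difference was 2.51 ± 0.20 (SE, 95% interval 2.09 to 2.94, adjusted p = 1.08e-07 by limma) against adherent mouse 1, and 2.51 ± 0.20 (adjusted p = 1.22e-07) against adherent mouse 2. Between adherent mouse 2 and adherent mouse 1 it was 0.01, with a 95% interval of -0.41 to 0.43. The spread was wider on the adherent side, with SDs (n = 3 each) of 0.06 in spheroids, 0.47 in adherent mouse 2 and 0.30 in adherent mouse 1. In adherent mouse 2 the array that stands apart, replicate 1, was the highest, and without it the difference from that culture was 2.77. The pools gave 12.01 for the spheroid culture, 9.72 for adherent mouse 2 and 9.49 for adherent mouse 1, each within the range of its replicates.

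Cxcl2 encodes MIP-2, a close relative of Cxcl1 that also acts on CXCR2. Its brighter probe read 5.43, 5.31 and 5.80 in spheroids, 5.02, 4.38 and 4.56 in adherent mouse 2 and 4.25, 4.71 and 4.23 in adherent mouse 1. It was detected on 3 of 3 spheroid arrays and on 1 of 3 arrays of each adherent culture, and the spheroid arrays lay above all adherent ones. Both Cxcl2 probes passed the filter only through the spheroid culture, so their detection there is no separate evidence. The pools read 4.95 for the spheroid culture, below each of its replicates, 4.47 for adherent mouse 2 and 4.14 for adherent mouse 1. The difference from adherent mouse 1 was 1.12 ± 0.23 (SE, adjusted p = 0.00077, limma), just past 2-fold, and that from adherent mouse 2 was 0.86 ± 0.23 (adjusted p = 0.00501), just short of it. The adherent cultures themselves differed by 0.26 (adherent mouse 2 over adherent mouse 1, adjusted p = 0.503). The second probe was detected on 3 of 3 spheroid arrays and on 0 of 6 adherent arrays. With its adherent side set to the lowest signal of a detected probe, it was at least 1.45-fold higher in spheroids than in adherent mouse 1 and at least 1.43-fold higher than adherent mouse 2, and its fitted difference was 0.89 in both, under the 2-fold threshold. The call against adherent mouse 1 was lost under several other settings, among them the removal of spheroid replicate 3 (0.98) and the use of uncorrected intensities (0.29). Without adherent mouse 2 replicate 1 the difference from adherent mouse 2 passed the threshold, at 1.05.

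Ppbp encodes pro-platelet basic protein (CXCL7), which is stored in platelet granules and can be cleaved to a CXCR2 ligand. Its brighter probe read 11.10, 11.11 and 11.18 in spheroids, 10.77, 11.04 and 11.30 in adherent mouse 2 and 6.00, 5.58 and 5.67 in adherent mouse 1. Adherent mouse 1 stood far below both other cultures, which overlapped. Against adherent mouse 1 the difference was 5.38 ± 0.14 for the spheroid culture (SE, adjusted p = 3.85e-12, limma) and 5.29 ± 0.14 for adherent mouse 2 (adjusted p = 2.05e-10), which are 41.6-fold and 39.0-fold. These comparisons share the adherent mouse 1 arrays. Between the spheroid culture and adherent mouse 2 the difference was 0.09 with a 95% interval of -0.22 to 0.40. Ppbp thus differed between the adherent cultures about as much as between spheroid and adherent cells of mouse 1.

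The second Ppbp probe gave 10.19, 10.45 and 10.69 in spheroids, 10.01, 10.41 and 10.38 in adherent mouse 2 and 5.24, 5.04 and 5.01 in adherent mouse 1, with differences of 5.35, 0.18 and 5.17 for the same comparisons (spheroid over adherent mouse 1, spheroid over adherent mouse 2, adherent mouse 2 over adherent mouse 1). Both probes were thus high and low in the same cultures. Both were also detected on all 3 adherent mouse 1 arrays, where the raw intensity of the brighter one was 1.24 to 1.36 times the array background. On the spheroid arrays that ratio was 12.9 to 14.9 and on the adherent mouse 2 arrays 14.9 to 22.1. The spheroid culture and adherent mouse 2 thus overlapped in these ratios, as they did after normalization. The pools read 11.17 for the spheroid culture, 10.85 for adherent mouse 2 and 5.57 for adherent mouse 1. In the authors' deposited table the normalized intensities were 2667 to 2851 in spheroids, 2091 to 3052 in adherent mouse 2 and 154 to 173 in adherent mouse 1. Without background correction the difference between the spheroid culture and adherent mouse 1 was 3.76, and the call held. Adherent mouse 2 replicate 1 was the lowest of its culture for Ppbp and still lay far above every adherent mouse 1 array.

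**Figure D2:**
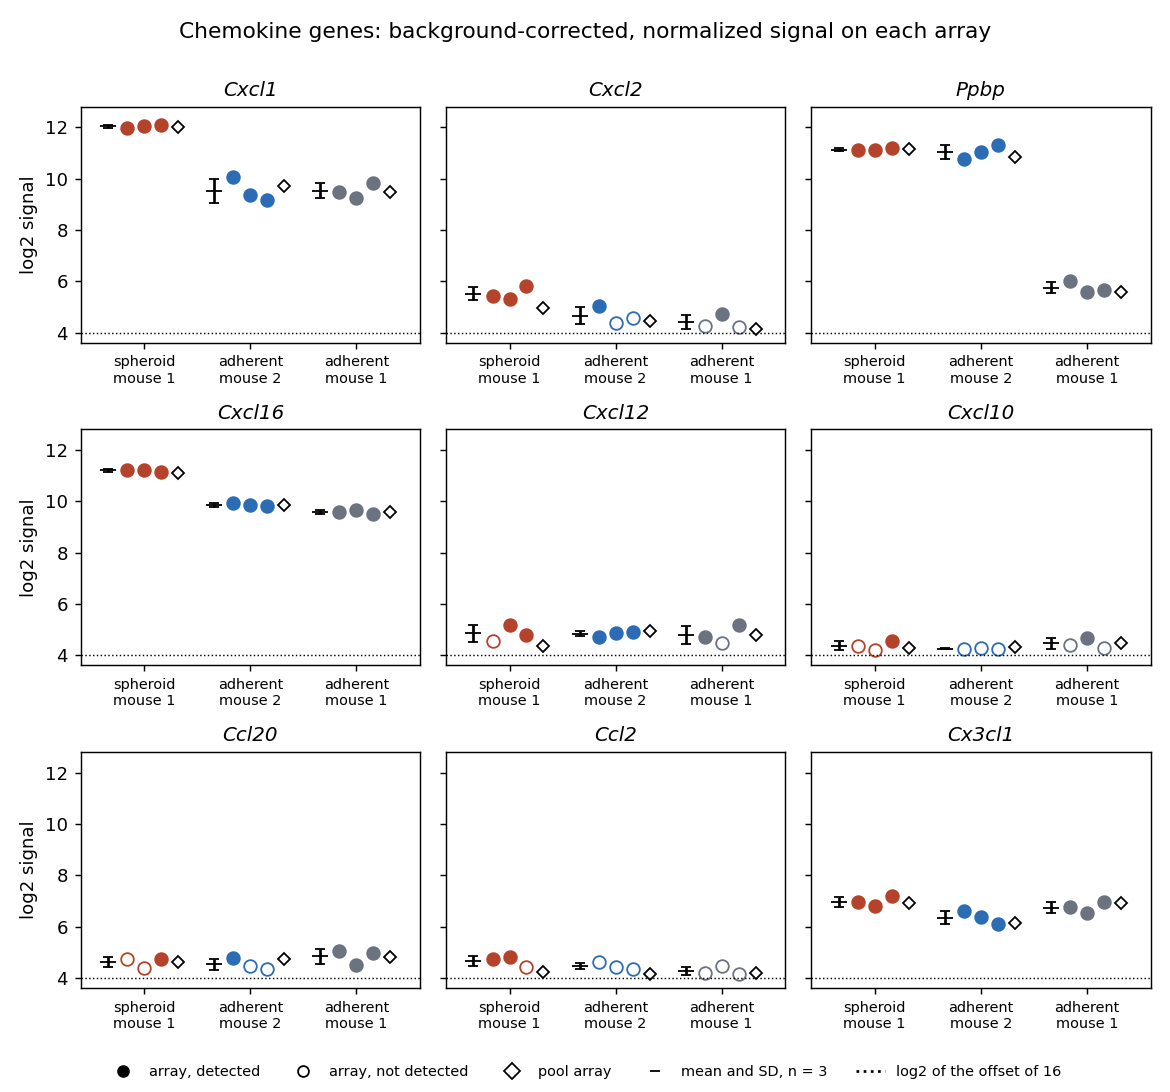
Log2 signal (y axis) of the brightest probe of 9 chemokine genes on each array, by culture (x axis). Circles are replicate arrays, filled where detected, diamonds are pools, bars are the mean and SD (n = 3), and the dotted line is the log2 of the offset. Cxcl1 and Cxcl16 sit higher in the spheroid culture, Ppbp is low in adherent mouse 1 alone of the 3 cultures, and Cxcl10 and Ccl2 lie near the dotted line throughout.

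Platelet and megakaryocyte markers were read beside Ppbp, since that gene is best known from those cells. Of 6 such markers with a probe (Itga2b, Gp1bb, Gp9, Gp6, Pf4 and Gata1), 2 were detected on all 3 spheroid arrays, 0 on all 3 adherent mouse 2 arrays and 0 on all 3 adherent mouse 1 arrays. Their summed linear signal was 68.9 to 116 in spheroids, 34.4 to 51.1 in adherent mouse 2 and 43.0 to 68.9 in adherent mouse 1. In adherent mouse 2, where Ppbp was as high as in the spheroid culture, Gp1bb, Gp9 and Gp6 were undetected on every array, Itga2b and Gata1 were each detected on 2 of 3 arrays (mean log2 signals of 4.81 and 4.75), and the summed marker signal overlapped that of adherent mouse 1. In the spheroid culture Gp1bb, a subunit of the platelet receptor for von Willebrand factor, was detected at a low level and was at least 2.73-fold higher than adherent mouse 1, while Itga2b, the platelet integrin subunit, was undetected on all 3 arrays. Gp1bb passed the filter only through the spheroid culture. What part these markers had in the Ppbp result was not tested. Pf4, the platelet chemokine gene next to Ppbp, was detected on 2 arrays of the spheroid culture, 1 array of adherent mouse 2 and 2 of adherent mouse 1, with mean log2 signals of 4.80, 4.40 and 4.77.

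Luminal epithelial markers were also read beside Ppbp, and they did not share 1 pattern. Of 5 luminal markers with a probe, 4 were detected on all arrays of the spheroid culture and 4 on all arrays of adherent mouse 2, against 2 on those of adherent mouse 1. Krt19, a keratin of simple and luminal epithelium, averaged 12.35 in spheroids, 8.53 in adherent mouse 2 and 4.60 in adherent mouse 1, where it was detected on 1 of 3 arrays. Tmprss2, a luminal surface protease, averaged 7.87, 5.82 and 4.75 in the same order. The luminal keratin genes Krt8 (11.48, 12.55 and 12.32) and Krt18 (8.74, 10.15 and 10.17) were lowest in spheroids and about as high in adherent mouse 1 as in adherent mouse 2. Pbsn, the secreted probasin of luminal cells, was detected on 1 of 3, 1 of 3 and 0 of 3 arrays in that order. The summed linear signal of the list was 8220 to 9120 in spheroids, 7190 to 8040 in adherent mouse 2 and 6140 to 6490 in adherent mouse 1, and its part in the Ppbp result was not tested.

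The 3 genes whose pattern over the 9 replicate arrays was nearest to that of Ppbp were Wfdc2 (a whey acidic protein family gene of secretory epithelium), Msln (mesothelin, a surface glycoprotein) and Adh7 (an alcohol dehydrogenase that also acts on retinol). Nearness was the Euclidean distance between log2 signals centred on each gene's mean, and it was 2.09, 3.53 and 3.90 for these genes, against a median of 7.66 over all genes tested. Wfdc2 averaged 11.06 in spheroids, 9.47 in adherent mouse 2 and 4.59 in adherent mouse 1. Msln averaged 9.11, 8.88 and 6.08 and Adh7 12.34, 9.67 and 7.21 in the same order. The log2 difference between the spheroid culture and adherent mouse 2 was 1.59 for Wfdc2, 0.24 for Msln and 2.67 for Adh7, against 0.09 for Ppbp. This distance grows with the size of a gene's differences, so it is not comparable between chemokine genes. The 3 genes were chosen for the smallest distances, so they lie under the median by choice and are no separate evidence.

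Cxcl5, which encodes the CXCR2 ligand LIX in mouse, lies beside Ppbp and was not analysed here. Along chromosome 5 the protein-coding order was Rassf6, Cxcl5, Ppbp, Pf4, Cxcl3, Cxcl15, Cxcl1, Cxcl2 and Mthfd2l (RefSeq, GRCm38.p6). Detection was uneven along this order, and genes between Ppbp and Cxcl1 were at or near background. Cxcl3 and Cxcl15, which lie between them, were undetected on all 9 replicate arrays, although the Cxcl3 promoter also held the NF-κB type motif, starting 72 bases before its start. Rassf6, the flanking gene on the Ppbp side, was detected on 3 of 3 spheroid arrays, 0 of 3 adherent mouse 2 arrays and 1 of 3 adherent mouse 1 arrays by its brighter probe, with mean log2 signals of 6.48, 4.30 and 4.42. Its pattern set the spheroid culture apart, as Cxcl1 did, and not adherent mouse 1, as Ppbp did. Unlike Cxcl1, Rassf6 passed the filter only through the spheroid culture, so its detection there is no separate evidence. Mthfd2l, the flanking gene on the Cxcl2 side, was detected on 1 of 3 arrays of each culture.

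**Figure D3:**
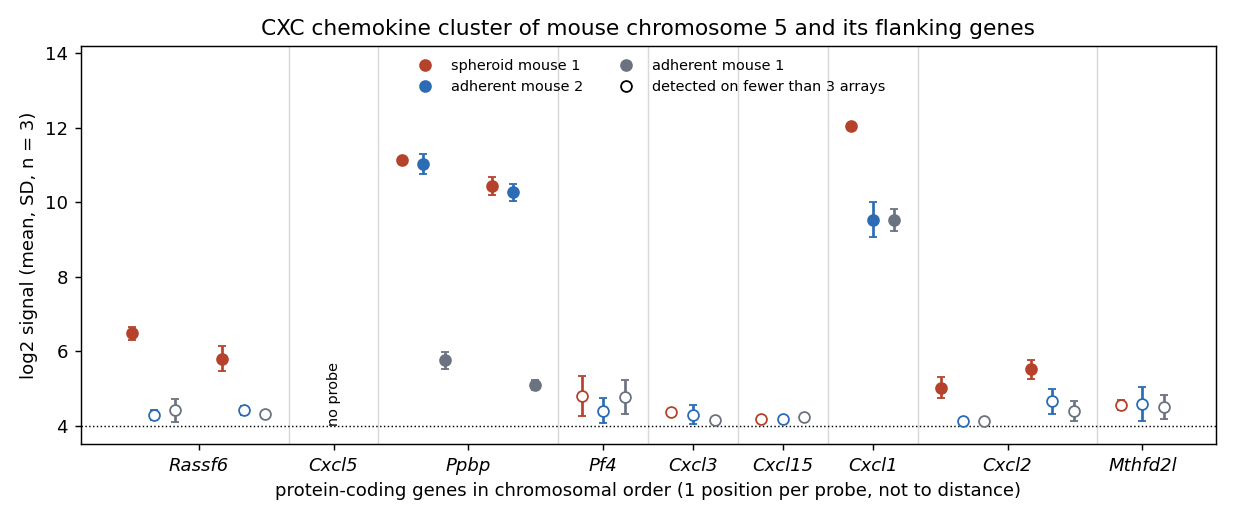
Mean log2 signal with SD (y axis, n = 3) of each probe of the genes of the chromosome 5 CXC cluster and its flanking genes, in chromosomal order (x axis, 1 position per probe). Open circles mark cultures with detection on fewer than 3 arrays. Levels of different probes are not comparable: the cultures are to be read within a probe, where Ppbp is low in adherent mouse 1, Cxcl1 is high in the spheroid culture, and Pf4, Cxcl3 and Cxcl15 lie near background in all 3.

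Among the CXC genes without an ELR motif, Cxcl12 was not called, Cxcl10 was not tested, and Cxcl16 was higher in the spheroid culture in both comparisons. Cxcl16 encodes a chemokine made as a membrane protein on a mucin-like stalk, which binds CXCR6 and can be shed. Its brighter probe read 11.22, 11.23 and 11.15 in spheroids, 9.92, 9.84 and 9.80 in adherent mouse 2 and 9.58, 9.66 and 9.49 in adherent mouse 1. The 3 cultures did not overlap, and the spheroid culture was the highest. The difference was 1.62 ± 0.09 (SE, adjusted p = 2.22e-09, limma) against adherent mouse 1 and 1.35 ± 0.09 (adjusted p = 1.56e-08) against adherent mouse 2, or 3.08-fold and 2.54-fold. Between adherent mouse 2 and adherent mouse 1 it was 0.27 (adjusted p = 0.0504), which was not called. A second probe read 7.67, 7.80 and 7.85, then 6.60, 6.03 and 5.74, then 6.74, 6.64 and 6.42 in the same order of cultures. Its differences from adherent mouse 1 and adherent mouse 2 were 1.17 and 1.65, both called, but it placed adherent mouse 2 below adherent mouse 1 (-0.48, adjusted p = 0.166), so the probes disagree on the order of the adherent cultures. When arrays were scaled to equal medians instead of quantiles, the difference from adherent mouse 2 was 0.74 and was not called. Under that scaling the median of all genes was itself -0.44, and relative to it Cxcl16 was at 1.18.

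The nearest genes to Cxcl16 over the 9 arrays were Pttg1ip, Hint3 and Synpo, at distances of 0.157, 0.197 and 0.218 against a median of 2.39 over all genes. Those to Cxcl1 were Casz1, Ercc2 and Tmprss13, at 0.481, 0.537 and 0.581 against a median of 3.80. They were chosen by their pattern on these arrays, so their levels are no separate evidence.

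Cxcl12 encodes the CXCR4 ligand SDF-1, a chemokine of stromal cells. Only 1 of its 5 probes passed, through adherent mouse 2, where it was detected on all 3 arrays. That probe read 4.55, 5.19 and 4.80 in spheroids, 4.72, 4.87 and 4.90 in adherent mouse 2 and 4.72, 4.47 and 5.16 in adherent mouse 1. The cultures overlapped, near background, and the differences lay between 0.02 and 0.06, with 95% intervals reaching from -0.46 to 0.54. Cxcl10 encodes an interferon-induced ligand of CXCR3. Its probes were each detected on at most 1 array of any culture, and neither was tested. The brighter one averaged 4.37 in spheroids, 4.25 in adherent mouse 2 and 4.46 in adherent mouse 1, with SDs of 0.17, 0.03 and 0.20, and the other one reached 5.19 on adherent mouse 2 replicate 1 alone, against 4.12 to 4.34 on the 8 other arrays.

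Of the CC genes, Ccl20 was tested and not called, and Ccl2 was not tested. Ccl20, which encodes a CCR6 ligand of epithelia, passed the filter through adherent mouse 1, where it was detected on 3 of 3 arrays, against 1 of 3 in the spheroid culture and 1 of 3 in adherent mouse 2. Its log2 signal was 4.74, 4.40 and 4.75 in spheroids, 4.76, 4.45 and 4.36 in adherent mouse 2 and 5.05, 4.50 and 4.97 in adherent mouse 1. The cultures overlapped, and the difference of the spheroid culture was -0.21 (95% interval -0.66 to 0.25) from adherent mouse 1 and 0.11 (-0.35 to 0.56) from adherent mouse 2. Its other probe was undetected on all 9 arrays. Ccl2, which encodes MCP-1, the main monocyte attractant acting on CCR2, was detected on 2 of 3 spheroid arrays and on 0 of 6 adherent arrays. It read 4.72, 4.82 and 4.43 in spheroids, 4.61, 4.43 and 4.36 in adherent mouse 2 and 4.20, 4.46 and 4.16 in adherent mouse 1. These values lay near background and overlapped between the spheroid culture and both adherent cultures.

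Cx3cl1 encodes fractalkine, which is anchored in the membrane by a mucin-like stalk and binds CX3CR1. It was detected on all 9 replicate arrays, at a log2 signal of 6.96, 6.79 and 7.17 in spheroids, 6.61, 6.36 and 6.08 in adherent mouse 2 and 6.75, 6.54 and 6.94 in adherent mouse 1. The spheroid arrays lay above those of adherent mouse 2 and overlapped those of adherent mouse 1. The difference from adherent mouse 2 was 0.62 ± 0.18 (SE, adjusted p = 0.0103, limma), under the 2-fold threshold, and that from adherent mouse 1 was 0.23 (95% interval -0.17 to 0.63). Adherent mouse 2 against adherent mouse 1 gave -0.39 (adjusted p = 0.186). Cx3cl1 was thus a steadily detected gene whose differences all stayed under 2-fold.

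**Figure D4:**
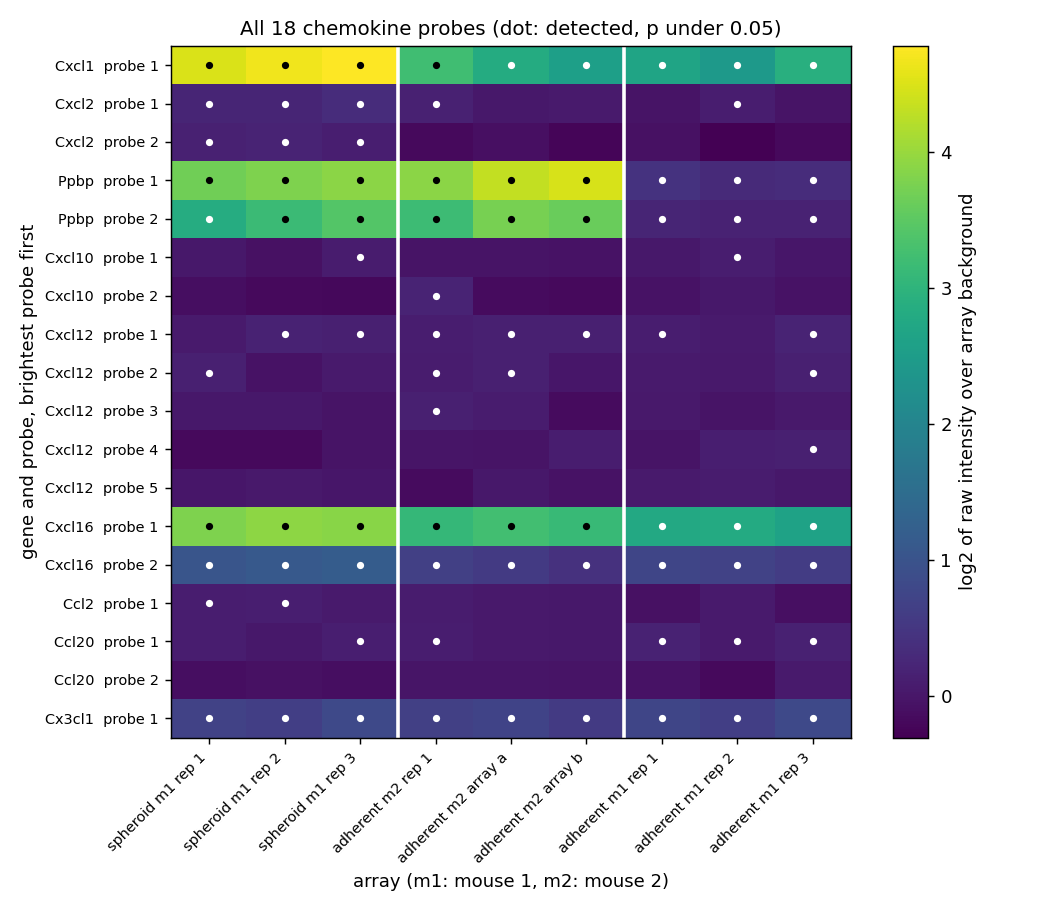
Log2 of the raw intensity over the array's background (colour scale) for all 18 probes of the 9 chemokine genes (rows) on the 9 replicate arrays (columns), with a dot where the probe was detected. The 8 probes that did not pass stay between 0.87 and 1.15 times the background, while Cxcl1, Ppbp and Cxcl16 carry the bright probes.

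Other genes of the chemokine system were mostly dim. Over all genes, 27.6% were called for spheroids against adherent mouse 1, 26.8% against adherent mouse 2 and 2.46% between the adherent cultures. The lists below held few tested genes, so their counts beside these shares are not read as results about the lists. Of 28 further chemokine ligand genes, 7 were tested, and 1 was called: Cxcl17, a mucosal chemokine, was at least 2.51-fold higher in spheroids than in adherent mouse 1, which did not detect it on any array, and differed by 1.35 (adjusted p = 3.49e-05, limma) from adherent mouse 2. Cxcl17 passed the filter only through the spheroid culture. Of 23 chemokine receptor genes with a probe, 3 were tested and 0 were called in any comparison. These 3, named after their values were seen, were Cxcr2, Ccr6 and Ackr4. Cxcr2, the receptor of Cxcl1, Cxcl2 and the Ppbp product, was detected on 3 of 3 spheroid arrays, 0 of 3 adherent mouse 2 arrays and 2 of 3 adherent mouse 1 arrays, with mean log2 signals of 5.02, 4.46 and 4.65, and its differences (0.56 and 0.38) were under 2-fold. Ccr6, the receptor of Ccl20, averaged 4.82, 4.93 and 4.47 in the same order. Of 12 genes of proteases that shed or trim chemokines, 5 were tested, and Adam17, the sheddase that releases Cx3cl1 and other membrane proteins, was higher in the spheroid culture by 1.57 ± 0.14 against adherent mouse 1 (SE, adjusted p = 5.53e-07) and by 1.83 ± 0.14 against adherent mouse 2 (adjusted p = 1.28e-07).

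Cytokines, receptors and adaptors that induce chemokine genes gave 16 tested genes of 27. Against adherent mouse 1, 4 were higher and 1 lower in spheroids, and against adherent mouse 2, 3 were higher and 0 lower. Called either way, that is 5 of 16 and 3 of 16, close to the background of 27.6% and 26.8% of all genes. Tnf, a main inducer of Cxcl1 and Cxcl2, was undetected on all 6 adherent arrays and detected on 3 of 3 spheroid arrays, at least 2.77-fold higher than adherent mouse 1 and at least 2.59-fold higher than adherent mouse 2. This Tnf probe passed the filter only through the spheroid culture, so its detection there is no separate evidence. Tlr4, the receptor of bacterial lipopolysaccharide, differed by 1.40 and 1.43 in the same order of comparisons. Il1rn, which encodes the interleukin-1 receptor antagonist and so opposes induction, differed by 2.17 and 1.65, and the TNF receptor gene Tnfrsf1a by 1.02 from adherent mouse 1 alone. Csf1, which encodes the macrophage growth factor, was lower than in adherent mouse 1 (log2 difference -1.35, detected on 1 of 3 spheroid arrays). Between the adherent cultures 0 of 16 were called.

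In the list of NF-κB and interferon transcription control, many genes were called. Of 21 tested, 11 were higher and 0 lower in spheroids than in adherent mouse 1, with a median difference of 1.13 against -0.06 over all genes, and 12 were higher and 0 lower than in adherent mouse 2, with a median of 1.09 against -0.05. The shares called higher over all genes were 13.4% and 13.2% in these comparisons. The list was chosen with earlier results of these data known, so its counts and medians are no separate evidence. Some of its genes also passed the filter only through the spheroid culture, such as Bcl3, which was detected on 3 spheroid arrays and on 2 arrays of each adherent culture. The largest differences were those of Tnip1 (3.75 against adherent mouse 1 and 3.35 against adherent mouse 2) and Fos (2.89 and 3.58). They were followed by Zfp36 (2.29 and 2.46), Irf9 (1.91 and 2.23), Irf1 (2.02 and 2.22), Bcl3 (2.03 and 2.20), Relb (1.67 and 1.39) and Zc3h12a (1.15 and 1.56). These are values of the brightest probe of each gene, and the Tnip1 probes disagree on size. Its further probes gave 3.46 and 3.31, 1.95 and 1.73, and 1.84 and 2.17, all called. Relb is an NF-κB subunit, Irf1 and Irf9 are transcription factors of the interferon response and Fos is a subunit of AP-1. Several of the others are restraints: Tnip1 binds the deubiquitinase A20 and damps NF-κB signalling, and Zfp36 and Zc3h12a promote the decay of cytokine and chemokine mRNAs. Between adherent mouse 2 and adherent mouse 1, 0 of the 21 were higher and 1 was lower, which was Jun (-1.06, adjusted p = 0.00017, limma). Over all genes 2.46% were called in that comparison. Among the uncalled genes of this list, 5 had an adjusted p under 0.05 there with a fold under 2: Rela (-0.71), Nfkbia (-0.64), Irf3 (-0.34), Tnip1 (0.40) and Nfkbiz (0.44), of which Rela, Nfkbia, Irf3 and Nfkbiz were named after their values were seen.

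**Figure D5:**
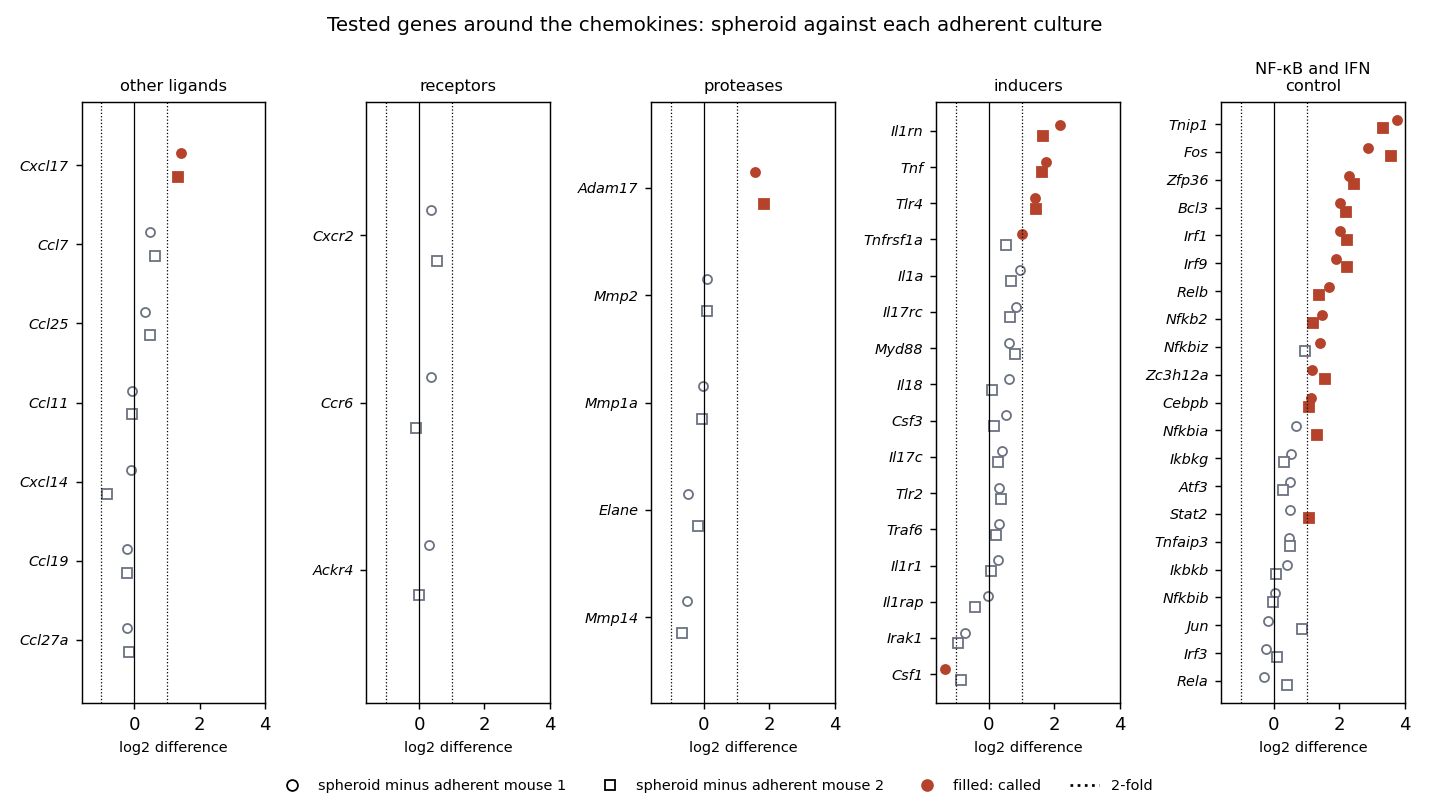
Log2 differences (x axis) of the tested genes of 5 lists around the chemokines (y axis), as spheroid minus adherent mouse 1 (circles) and spheroid minus adherent mouse 2 (squares), filled where called, with dotted lines at 2-fold. Both sets of comparisons share the spheroid arrays. In the NF-κB and interferon list most genes lie right of the dotted line, Tnip1 and Fos farthest, while no receptor passes it.

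Leukocyte markers were read beside Cxcl1, Cxcl2 and Cxcl16, since leukocytes also make these chemokines. Of 11 such markers with a probe, 2 were detected on all arrays of each culture, and these differed: Cd14 and Cd52 in the spheroid culture, Cd14 and Cd3e in adherent mouse 2, and Cd14 and Csf1r in adherent mouse 1. The summed linear signal was 1550 to 1790 in spheroids, 180 to 211 in adherent mouse 2 and 358 to 429 in adherent mouse 1, most of it from Cd14, a lipopolysaccharide co-receptor that epithelial cells can also carry, with mean log2 signals of 10.63, 7.24 and 8.39. Ptprc, the pan-leukocyte CD45 gene, was detected on 1 array of the spheroid culture, 1 array of adherent mouse 2 and 0 of adherent mouse 1, and Tyrobp and Laptm5 were undetected on all 9. In the same order of cultures, Adgre1 and Itgam were each detected on 1, 0 and 0 arrays. Lyz2 and Fcer1g were each detected on 1, 0 and 1 arrays. Fibroblast markers, read beside Cxcl12, had summed signals of 88.0 to 132 in spheroids, 452 to 467 in adherent mouse 2 and 222 to 249 in adherent mouse 1. Most of this signal came from Fbln1 (mean log2 signals of 6.09, 8.74 and 7.66). Col1a2 was detected on all 3 arrays of every culture, at a low level (4.97, 5.10 and 4.95). In the same order of cultures, Dcn was detected on 2, 0 and 2 arrays, Lum on 2, 0 and 1 and Col3a1 on 1, 0 and 0. Col1a1, Pdgfra and Pdgfrb were undetected throughout. Endothelial markers summed to 33.5 to 41.3, 49.0 to 62.5 and 47.6 to 63.0 in the same order. Kdr was detected on 3, 3 and 2 arrays, Pecam1 on 2, 2 and 3, Tek on 0, 1 and 3 and Emcn on 1, 0 and 2. Cdh5 and Vwf were undetected throughout. What part the marker signals had in the chemokine results was not tested.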

How the data were processed

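The authors deposited a table of the mean bead intensity of each probe on each array, on a linear scale with background included, and a detection p-value for each, per the file headers. They also deposited normalized intensity values for these arrays, linear by their range (column medians 124.7 to 128.9), whose normalization method and scaling are not given in the sources used here. Per the labels' protocols, a miRNeasy kit gave the RNA and a MessageAmp kit the labelled cRNA. Scanner software and genome build are not given in the sources used here.

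Starting from the non-normalized table, limma 3.58.1 (in R 4.3.3) estimated the background of every array from the detection p-values, corrected for it by neqc with 16 added, and brought all 12 arrays to the same quantiles on the log2 scale. Gene symbols came from the supplied platform annotation (34773 probes with 1 symbol, 18 with several, which named no gene, and 10344 with none here), and 34695 probes matched a current gene by Entrez identifier. A gene's value is that of its brightest passing probe over the 9 replicate arrays. The model (lmFit, eBayes with an intensity trend) had 1 mean for each culture, without the pools. P-values were adjusted over all 10112 genes. For a gene that no array of a culture detected, the fold is a bound, in which each array of that culture takes its own value or the lowest detected signal, whichever is higher. Arrays carry no read depth, so their number, 3 per culture, limits the precision. The fit was tested on simulated data. Figures and motif searches used Python 3.11.15 (pandas 2.3.3, matplotlib 3.10.9). Promoters came from RefSeq (GRCm38.p6), with entries for 7 of the 10 genes, and Cxcl5, Cxcl16 and Ccl2 without one.

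All 10 genes are named with every probe. From 5 lists around them, up to 8 called genes per list are named, by the largest difference, besides markers of 6 cell types, cluster neighbours and the 3 nearest genes of a tested member. The members and lists were chosen with earlier results of these data known. Alternatives were the background correction, offset, scaling, detection filter, probe choice, the authors' values, the arrays in the fit, leaving out each array and a block on the replicate number.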

Additional observations from a re-analysis of the deposited data

How the results depend on the processing

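Of 409 differences of single chemokine genes recomputed under alternatives, 399 kept their direction or stayed uncalled, 9 lost the call, 1 gained it and 0 called ones reversed. For a given probe, the block and the removal of arrays of a culture not compared cannot change a difference, only its p-value. The 399 thus include results that had little room to change. Cxcl1 (1.89 to 2.77 over both spheroid comparisons) and Ppbp against adherent mouse 1 (3.76 to 5.60 for the spheroid culture, 3.67 to 5.53 for adherent mouse 2) kept every call. Cxcl2 against adherent mouse 1 lost its call without background correction (0.29), with an offset of 50 (0.53), with equal medians (0.98), with cyclic loess (0.98), with the authors' values (0.33, also with the block), by its second probe (0.89) and without spheroid replicate 3 (0.98, range over left-out arrays 0.98 to 1.27). The second-probe alternative was chosen after seeing the data. Cxcl2 against adherent mouse 2 gained a call without adherent mouse 2 replicate 1 (1.05, range 0.72 to 1.05). Equal medians shifted the median of all genes to -0.27 for spheroid over adherent mouse 1, -0.44 over adherent mouse 2 and 0.17 for adherent mouse 2 over adherent mouse 1. They left 1 called chemokine gene, Cxcl1, against adherent mouse 2, with Cxcl16 at 0.74. The counts of chemokine genes stayed within 1.5 times of 4, 2 and 1 elsewhere. Over all genes, 2786 were called against adherent mouse 1, 2705 against adherent mouse 2 and 249 between the adherent cultures. These became 1348, 1305 and 50 without background correction and 1539, 1502 and 63 with the authors' values. Between the adherent cultures an offset of 50 gave 102, and leaving out single arrays gave 219 to 376, the highest without adherent mouse 2 replicate 1. No pairing by replicate number was seen between the spheroid culture and adherent mouse 1. Correlations of same-numbered deviations were -0.04 to 0.07, against -0.088 to 0.066 for differently numbered ones. With so few arrays this check cannot exclude a pairing. A replicate block, which cannot change a difference in these balanced sets, gave 2786 genes and 4 chemokine genes on those 6 arrays. On the authors' values it gave 1539, 1502 and 63. The cause of these changes was not tested. Dim probes limit Cxcl2, Cxcl12, Ccl20, Cxcl10 and Ccl2, whose signals lie near background.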
